A study of Mus musculus with 4 samples.

Results

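Hoxa9, Hoxa10, Hoxa11, Hoxd9, Hoxd10 and Hoxd11 are the 6 genes named in the genotype of the mutant kidneys, and they are described here in each kidney lineage. They are 6 of the 27932 genes in the count tables, taken by name, and all 6 had counts in all 4 libraries. Embryonic mouse kidneys at E14.5 were dissociated and profiled by Drop-seq, which catches cells in droplets with barcoded beads and sequences the 3' ends of their transcripts. There were 2 libraries of mutant kidneys, whose genotype the labels give as Hoxa9,10,11 and Hoxd9,10,11 -/-, and 2 libraries of wildtype kidneys. Both genotypes were on a mixed background, mostly CD-1 and 129. The labels state neither which part of each gene was altered nor whether a library came from 1 embryo or several, so the level of a targeted gene is no check of the genotype, and p-values measure only how far these libraries lie apart, part of which may be technical.

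Hox genes encode homeodomain transcription factors that lie in clusters and are switched on in an order that follows their position along the chromosome. Members at the posterior end of the clusters are called the Abd-B group, after the Drosophila gene Abdominal-B, and paralogs in different clusters can stand in for each other. In the mouse kidney the Hox11 paralogs work with Eya1 and Pax2 in the metanephric mesenchyme, where they act on Six2 and Gdnf and so on nephron progenitors and on branching of the ureteric bud.

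The 3 HoxA members are neighbours on the minus strand of chromosome 6, and the 3 HoxD members are neighbours on the plus strand of chromosome 2 (build mm10, GENCODE M21). Hoxa9 lies at chr6:52223100-52231089, Hoxa10 at chr6:52231197-52240854 and Hoxa11 at chr6:52242106-52245810. Hoxd11 lies at chr2:74679557-74687016, Hoxd10 at chr2:74691924-74695105 and Hoxd9 at chr2:74697727-74700208. An antisense transcript, Hoxa11os, shares 800 exonic bases with Hoxa11, 35% of its exonic length, and the labels do not say whether counting used strand, so reads of this pair cannot be told apart there. On the same strand, Gm28309 shares 455 exonic bases with Hoxd11 (10.8%) and 104 with Hoxd10 (5.73%). Mir196b shares 85 with Hoxa9 (1.52%). Neither Gm28309 nor Mir196b is in the count tables, and how shared reads were counted is not stated. The windows around the annotated starts of the HoxD members, 250 bases before to 50 after, are shown because Hoxd9 and its neighbours Hoxd10 and Hoxd11 had opposite patterns in ureteric cells. They are RefSeq sequence on the plus strand of build GRCm38.p6, at chr2:74679308-74679607 and chr2:74682073-74682372 for the 2 annotated starts of Hoxd11, chr2:74691641-74691940 for Hoxd10 and chr2:74697513-74697812 for Hoxd9. Capitals mark matches, on either strand, of TTTAT, the core that Abd-B type homeodomains bind, and of ATCAATCA, a composite Hox site. No match of one motif overlapped a match of the other in these windows.
Hoxd11 first start: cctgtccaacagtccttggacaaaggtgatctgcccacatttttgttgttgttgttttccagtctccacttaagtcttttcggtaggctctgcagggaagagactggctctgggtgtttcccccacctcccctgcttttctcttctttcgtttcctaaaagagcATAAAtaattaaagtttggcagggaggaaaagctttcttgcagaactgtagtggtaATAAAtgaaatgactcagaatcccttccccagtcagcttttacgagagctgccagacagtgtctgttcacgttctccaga
Hoxd11 second start: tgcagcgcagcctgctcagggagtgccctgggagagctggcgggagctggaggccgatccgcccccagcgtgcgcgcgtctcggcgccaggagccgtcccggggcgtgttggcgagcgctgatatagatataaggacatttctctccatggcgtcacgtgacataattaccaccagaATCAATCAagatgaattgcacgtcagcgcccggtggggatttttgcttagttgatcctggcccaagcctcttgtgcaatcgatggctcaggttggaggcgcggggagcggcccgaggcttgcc
Hoxd10: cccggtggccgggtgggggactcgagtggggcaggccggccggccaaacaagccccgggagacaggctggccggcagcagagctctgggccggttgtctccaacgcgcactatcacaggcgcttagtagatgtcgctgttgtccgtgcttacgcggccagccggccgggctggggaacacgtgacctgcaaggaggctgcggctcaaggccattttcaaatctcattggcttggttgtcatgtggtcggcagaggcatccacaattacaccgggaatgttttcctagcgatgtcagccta
Hoxd9: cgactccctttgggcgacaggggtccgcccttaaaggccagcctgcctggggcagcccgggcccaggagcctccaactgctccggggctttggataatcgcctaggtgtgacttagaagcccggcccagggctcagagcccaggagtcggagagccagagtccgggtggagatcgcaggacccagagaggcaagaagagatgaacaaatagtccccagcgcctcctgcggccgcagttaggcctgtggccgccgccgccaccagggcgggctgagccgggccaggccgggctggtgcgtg
The first Hoxd11 window held 2 matches of TTTAT, which occurred in 40% of 32851 windows of the same length over all genes. The second Hoxd11 window held 1 match of ATCAATCA, which occurred in 0.746% of those windows. The Hoxd10 and Hoxd9 windows held neither motif. G and C made up 45.7% and 62% of the Hoxd11 windows, 62.7% of the Hoxd10 window and 68.3% of the Hoxd9 window. Over the 8 windows of all 6 members, TTTAT was in 3 and ATCAATCA in 1.

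The tables held 3572346 and 21350698 counts in the mutant libraries and 9817486 and 24834658 in the wildtype libraries; the counts are called UMIs here. After filtering, 810 and 4329 mutant cells and 1852 and 4788 wildtype cells remained, with a median of 2394 and 3027 UMIs per mutant cell and 3595 and 3466 per wildtype cell. The mutant libraries stood apart in quality: 19.6% and 29.1% of their barcodes were over the mitochondrial limit of 10%, against 7.76% and 9.06% in wildtype. Malat1, a nuclear RNA, had 4676 and 6548 UMIs per 1000000 (CPM) in mutant cells and 2282 and 1679 CPM in wildtype cells, and its part in the results below was not tested. Mutant 2 and wildtype 2 shared 2 kept barcodes, and no other pair of libraries shared a kept barcode.

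Lineages were gated on UMIs of marker genes that hold no Hox gene. The progenitor gate used Six2, Cited1, Crym, Eya1, Meox1, Spock2 and Gdnf, which include genes that the Hox11 paralogs act on. A cell with less RNA of these genes can miss the gate, so the number of progenitor-like cells is not an independent cell count. Gated cells numbered 23 and 234 in mutant and 88 and 247 in wildtype libraries for early nephron-like cells, 25 and 163 against 60 and 119 for loop and distal tubule-like cells, and 26 and 35 against 89 and 176 for ureteric-like cells. Stroma-like cells numbered 279 and 1147 in mutants and 238 and 438 in wildtypes, endothelium-like cells 36 and 363 against 104 and 201, and immune-like cells 23 and 63 against 32 and 70. Nephron progenitor-like cells numbered 0 and 14 in mutants and 278 and 686 in wildtypes. Podocyte-like cells numbered 15 and 227 against 34 and 31, and proximal tubule-like cells 11 and 114 against 70 and 109. A lineage was tested between genotypes where every library had at least 20 cells, so the progenitor, podocyte and proximal tubule gates were not. Markers held out of the gates had a summed level 3.62 to 1065 times that of the other gates in wildtype cells of these 9 lineages. In mutant cells it was 2.42 to 476 times, and the lowest value belonged to the 14 progenitor-like cells. In those 14 cells 4 of 7 held-out markers were higher and 3 had 0 UMIs, while 6 of 7 were higher in each wildtype library. In loop and distal-like cells 1 of 4 had 0 UMIs in mutant 2 and in wildtype 2. In proximal tubule-like cells 1 of 5 had 0 UMIs in mutant 1.

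Across wildtype lineages, all 6 genes were higher in loop and distal-like and stroma-like cells, and 5, all but Hoxd9, in progenitor-like cells. In ureteric-like cells 5 were lower and Hoxd9 was higher, and in endothelium-like cells 5 were lower, all but Hoxa9. Each lineage was set against the mean of the log levels of the other 8 in the 2 wildtype libraries with edgeR's quasi-likelihood test and Benjamini-Hochberg adjustment over 11081 genes. Of 54 pairs of gene and lineage, 36 passed an adjusted p of 0.05, 23 of them higher and 13 lower. Loop and distal-like cells were higher for all 6 genes (12.3% of all genes tested were higher there and 3.62% lower), and so were stroma-like cells (15.1% of all genes higher, 6.38% lower). Progenitor-like cells were higher for 5 of 6 (17.8% of all genes higher, 8.06% lower) and early nephron-like cells for 4 (16.5% higher, 6.14% lower). In proximal tubule-like cells only Hoxa9 was higher (13.8% of all genes higher, 4.05% lower). In podocyte-like cells none passed in either direction (6.77% of all genes higher, 7.37% lower).

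**Figure D1:**
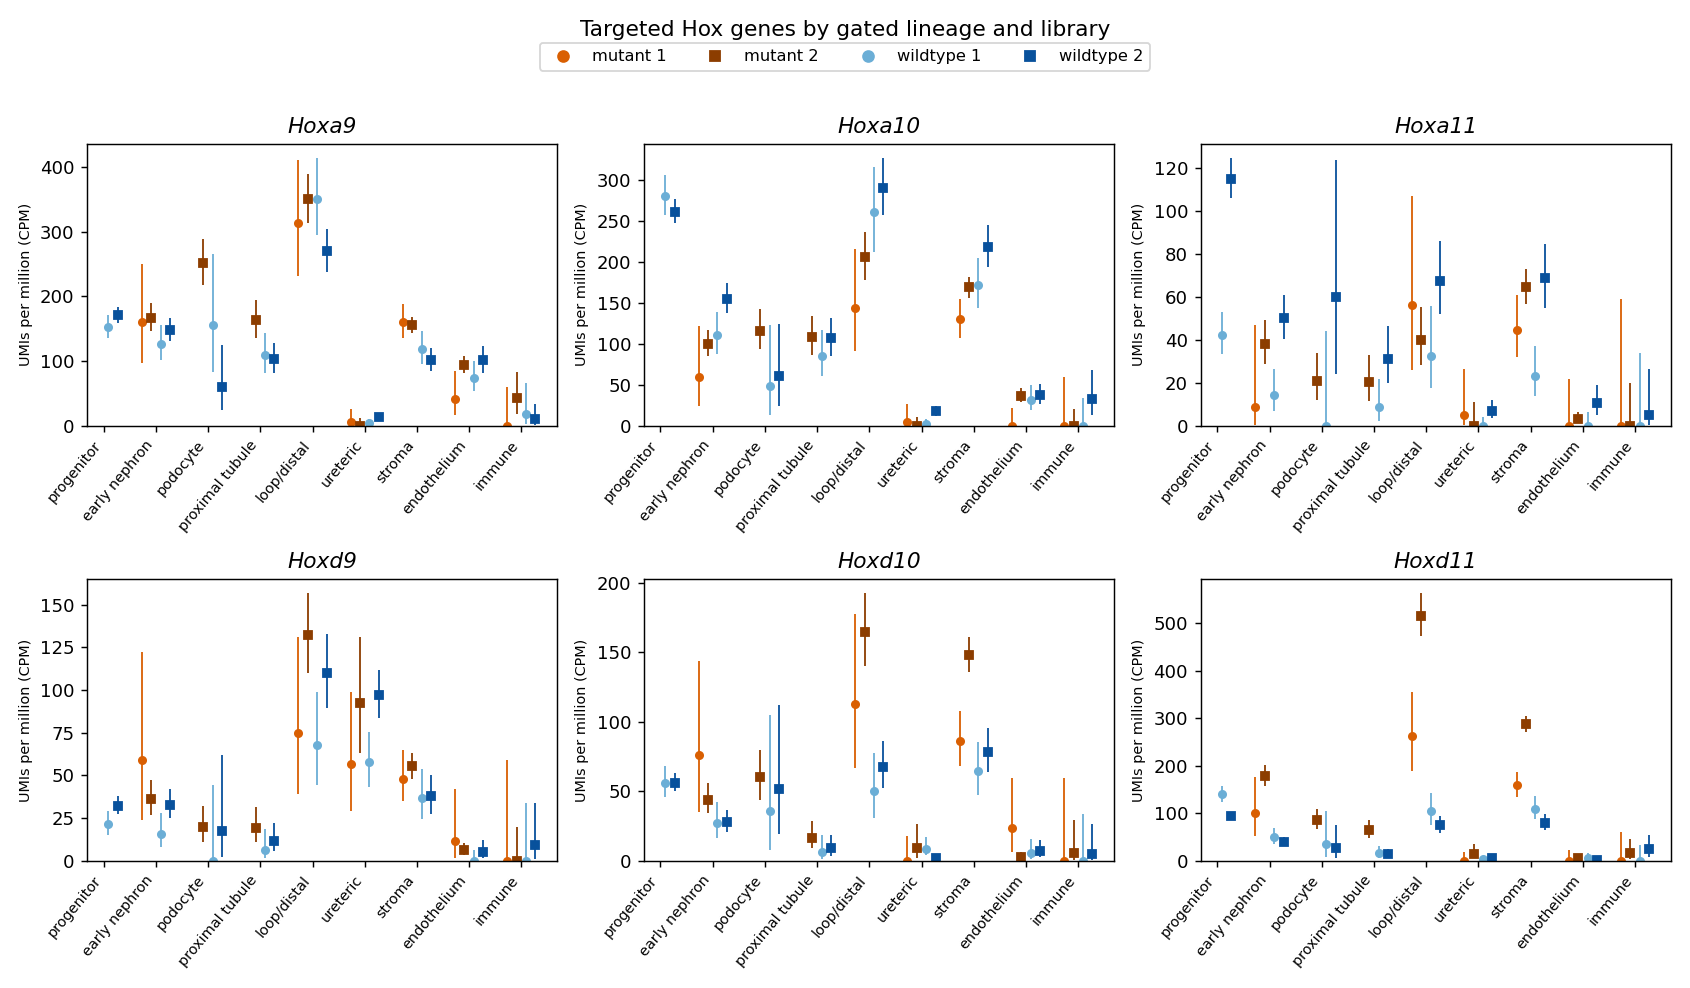
Level of each gene in UMIs per 1000000 (CPM, vertical axis, linear, own scale per gene) in each gated lineage with at least 20 cells in the library; points are libraries and bars are 95% exact Poisson intervals, which cover counting error only. Hoxd9 was the member with counts well above 0 in ureteric-like cells of all 4 libraries, between 56.5 and 97.3 CPM, and Hoxd11 in loop and distal-like cells stood at 263 and 516 CPM in mutants, against 105 and 74.9 CPM in wildtypes.

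Hoxa9, whose loss together with its paralogs disturbs posterior patterning, had its highest level in loop and distal-like cells of both genotypes. There it had 313 and 351 CPM in mutant libraries and 351 and 270 CPM in wildtype libraries, and the genotypes overlapped. In wildtypes the contrast of this lineage with the others was 2.2 on the log2 scale (SE 0.14, adjusted p = 2.23e-29). Progenitor-like cells followed in wildtype at 152 and 171 CPM, then early nephron-like cells at 127 and 148 CPM, with no overlap between neighbours in that order. Stroma, podocyte and proximal tubule-like cells averaged 110, 108 and 106 CPM in wildtype, and these 3 overlapped. Hoxa9 was the only member not called lower in wildtype endothelium-like cells (log2 0.40, SE 0.19, adjusted p = 0.121), and it had 40.8 and 94.3 CPM in mutant endothelium, against 73.5 and 101 CPM in wildtype endothelium. In ureteric-like cells Hoxa9 had 1 and 0 UMIs in mutants and 3 and 24 UMIs in wildtypes.

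Hoxa10, its 5' neighbour, had 144 and 206 CPM in loop and distal-like cells of mutants, against 261 and 291 CPM in wildtypes. In progenitor-like cells it had 174 CPM in the 14 cells of mutant 2 and 281 and 262 CPM in wildtypes. These 2 lineages overlapped at the top of its wildtype order. Stroma-like cells had 130 and 169 CPM in mutants and 172 and 219 CPM in wildtypes, so that every mutant library was below every wildtype library. Early nephron-like cells had 59.1 and 100 CPM in mutants and 111 and 155 CPM in wildtypes, again with no overlap. Wildtype proximal tubule, podocyte and endothelium-like cells averaged 96.2, 54 and 34.3 CPM, each apart from the next. In wildtype endothelium Hoxa10 was lower than in the other lineages by the test (log2 -1.18, SE 0.26, adjusted p = 0.000197).

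Hoxa11, a regulator of the kidney mesenchyme, held 19 UMIs in the progenitor-like cells of mutant 2, 157 CPM with a Poisson interval of 94.7 to 246 CPM, and had 42.4 and 115 CPM in those of the wildtypes, its highest wildtype lineage. Wildtype 1 was below wildtype 2 in all 9 lineages, and neighbours in the order of Hoxa11 levels overlapped throughout. The contrast of wildtype progenitor-like cells with the other lineages, taken within library, was 2.42 on the log2 scale (SE 0.20, adjusted p = 1.33e-23). Loop and distal-like cells had 56.3 and 40.1 CPM in mutants and 32.6 and 67.5 CPM in wildtypes. Stroma-like cells had 44.7 and 64.4 CPM in mutants and 23.3 and 68.7 CPM in wildtypes. In both lineages the mutant libraries lay between the wildtype ones.

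Hoxd9 was the member that departed from the others, with a high level in ureteric-like cells, the lineage of the ureteric bud and collecting duct. It had 56.5 and 92.6 CPM there in mutants and 57.6 and 97.3 CPM in wildtypes, and the genotypes overlapped. In wildtype its contrast with the other lineages was 2.24 on the log2 scale (SE 0.22, adjusted p = 1.36e-17; 14.7% of all genes were higher in ureteric-like cells). Ureteric-like cells stood beside loop and distal-like cells at the top of its order, which had 75 and 132 CPM in mutants and 67.7 and 110 CPM in wildtypes and overlapped with them. Stroma-like cells came next, at 48 and 55.2 CPM in mutants and 36.9 and 37.6 CPM in wildtypes, with no overlap between the genotypes. Progenitor-like cells averaged 26.8 CPM in wildtype, and their contrast did not pass (log2 0.62, SE 0.25, adjusted p = 0.0569). In endothelium-like cells Hoxd9 had 2 and 13 UMIs in mutants and 0 and 5 UMIs in wildtypes.

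The other 5 genes were lower in wildtype ureteric-like cells than in the other lineages (5.63% of all genes were lower there). The log2 contrasts were -3.43 for Hoxa9 (SE 0.35), -3.08 for Hoxa10 (SE 0.29), -2.57 for Hoxa11 (SE 0.57), -2.49 for Hoxd10 (SE 0.57) and -2.65 for Hoxd11 (SE 0.38), with edgeR's adjusted p between 4.38e-16 and 0.000249. With a gate of 5 UMIs the Hoxd10 contrast kept its direction but did not pass. Along the HoxD cluster the switch in direction lay between Hoxd10 and Hoxd9. Other genes of the clusters are given here after their values were seen, beginning with Hoxd8 and Hoxd3, the next genes on the far side of Hoxd9 among those tested. Hoxd8 had 179 and 86.6 CPM in mutant and 93.5 and 87.8 CPM in wildtype ureteric-like cells. Its wildtype contrast was 4.19 (SE 0.31, edgeR adjusted p = 1.01e-27). The size of that contrast depends on the prior count, since Hoxd8 had 0 UMIs in wildtype podocyte and immune-like cells. Wildtype loop and distal-like cells averaged 151 CPM of Hoxd8, above the 90.6 CPM of ureteric-like cells. Hoxd3 had 640 and 454 CPM in mutant and 242 and 276 CPM in wildtype ureteric-like cells, with a wildtype contrast of 2.62 (SE 0.13, adjusted p = 5.24e-50). On the other side, Hoxd12 had a contrast of 1.02 (SE 0.87, edgeR adjusted p = 0.495). It was near the floor, with a mean of 0.789 CPM in wildtype ureteric-like cells and 0 CPM in wildtype loop and distal-like cells. In the HoxA cluster Hoxa5 and Hoxa7 were lower in wildtype ureteric-like cells, by -2.99 (SE 0.66, adjusted p = 0.000128) and -2.86 (SE 0.47, adjusted p = 9.39e-07). Outside these clusters Hoxb9, a paralog of Hoxd9, also had a high ureteric level. It averaged 106 CPM in mutant and 105 ± 47.8 CPM (SD) in wildtype ureteric-like cells. This was its highest wildtype mean, followed by 62.1 ± 21.3 CPM in progenitor-like cells.

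Hoxd10 had 86 and 148 CPM in stroma-like cells of mutants and 64.3 and 78.3 CPM in those of wildtypes. In loop and distal-like cells it had 113 and 165 CPM in mutants and 50.2 and 67.5 CPM in wildtypes, and in both lineages every mutant library was above every wildtype library. Stroma-like cells were first in its wildtype order, overlapping with loop and distal-like cells, and these with progenitor-like cells at 56 and 56.2 CPM. Its stromal contrast in wildtype was 2.25 on the log2 scale (SE 0.24, adjusted p = 4.94e-16). Podocyte-like cells averaged 43.7 CPM in wildtype, above early nephron-like cells at 27.5 CPM, and rested on 3 and 6 UMIs.

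Hoxd11, the HoxD partner of Hoxa11 in kidney formation, had 282 CPM in the 14 progenitor-like cells of mutant 2, with a Poisson interval of 195 to 393 CPM, and 140 and 92.9 CPM in those of wildtypes. These 14 cells also had 282 CPM of the early nephron list, against 51.1 and 90.2 CPM in wildtypes, and 704 CPM of the progenitor list, against 1421 and 1439 CPM, and the part of this in their Hox levels was not tested. Stroma-like cells had 159 and 287 CPM in mutants and 109 and 79.9 CPM in wildtypes. Loop and distal-like cells had 263 and 516 CPM in mutants and 105 and 74.9 CPM in wildtypes. In wildtypes these 3 lineages stood at the top of the order, and neighbours overlapped. Early nephron-like cells had 101 and 178 CPM in mutants and 50 and 38.9 CPM in wildtypes. In all these lineages the mutant values were above both wildtype values. In ureteric-like cells Hoxd11 had 0 and 5 UMIs in mutants and 3 and 11 UMIs in wildtypes.

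In endothelium-like cells of wildtype, 5 members were lower than in the other lineages (7.57% of all genes were lower and 17.4% higher), with log2 contrasts from -3.15 for Hoxd11 (SE 0.50) to -1.18 for Hoxa10. In immune-like cells, which arise outside the kidney's own lineages and give a background level, the 3 HoxA members were lower (6.17% of all genes were lower and 10.9% higher). Immune-like cells held 0 to 8 UMIs of any member in any library. With a gate of 5 UMIs, 4 members were called in wildtype endothelium-like cells, against 5. In wildtype immune-like cells that gate gave 4 members, against 3.

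In the mutants, 6 lineages could be compared in the same way over 7039 genes. Of 36 pairs of gene and lineage, 26 passed edgeR's adjusted p of 0.05. Loop and distal-like cells were higher for all 6 genes (13.1% of all genes were higher there and 7.03% lower), stroma-like cells for all 6 (18.7% and 11.2%) and early nephron-like cells for 5, all but Hoxd9 (15.3% and 9.13%). Hoxd9 was again the only member that was higher in ureteric-like cells (9.92% of all genes), while Hoxa9, Hoxd10 and Hoxd11 were lower there (5.68%). In endothelium-like cells Hoxd10 and Hoxd11 were lower (8.85% of all genes lower, 16.7% higher), and in immune-like cells Hoxa10, Hoxd9 and Hoxd11 (10.9% lower, 14.2% higher). Fold sizes are not given for mutants, because Hoxa10, Hoxa11 and Hoxd9 had 0 UMIs in immune-like cells of both libraries, and a fitted fold against such a lineage depends on the prior count.

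Over all kept cells, the HoxD members had higher levels in mutants than in wildtypes and Hoxa10 lower levels, but no member passed the test across all genes. Hoxd11 had 113 and 197 CPM in mutants and 76.7 and 53.7 CPM in wildtypes, a mean of 155 ± 59.2 against 65.2 ± 16.3 CPM (SD, n = 2 libraries each). Hoxd10 had 62.9 and 84.8 CPM in mutants and 40.3 and 40.8 CPM in wildtypes. Hoxd9 had 49.7 and 47.5 CPM in mutants and 27.1 and 39.5 CPM in wildtypes. In each of these HoxD genes both mutant libraries were above both wildtype libraries. Hoxa10 had 93.8 and 127 CPM in mutants and 155 and 175 CPM in wildtypes, with both mutant libraries below. Hoxa9 had 140 and 163 CPM against 127 and 127 CPM, and Hoxa11 had 29.6 and 41.7 CPM against 20 and 64.4 CPM. Hoxa9 did not overlap between genotypes and Hoxa11 did.

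The log2 fold changes over all kept cells, mutant over wildtype, were 1.13 for Hoxd11 (SE 0.34, edgeR adjusted p = 0.115), 0.73 for Hoxd10 (SE 0.34, adjusted p = 0.468) and -0.72 for Hoxa10 (SE 0.33, adjusted p = 0.457). They were 0.39 for Hoxd9 (SE 0.35), 0.12 for Hoxa9 (SE 0.32) and -0.43 for Hoxa11 (SE 0.60), with adjusted p between 0.801 and 0.958. Without wildtype 2 the Hoxa11 value was 0.81, so its direction rested on that library. None of the 6 genes was called, against 1.32% of all genes tested (208 of 15777). Of the 6, 3 had an unadjusted edgeR p under 0.05, beside 1500 of the 15777 genes. DESeq2 called none either, against 192 genes in all. The median of the 6 fold changes was 0.26, against 0.01 over all genes. Both mutant libraries were above both wildtype libraries for 4 members, against 25.1% of 15915 genes, and below for 1, against 13.6%. In these summed cells, fewer cells of a type and less RNA of a gene per cell cannot be told apart, and progenitor-like cells, rich in Hoxa10, Hoxa11 and Hoxd11, numbered 0 and 14 in the mutants, against 278 and 686 in the wildtypes.

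**Figure D2:**
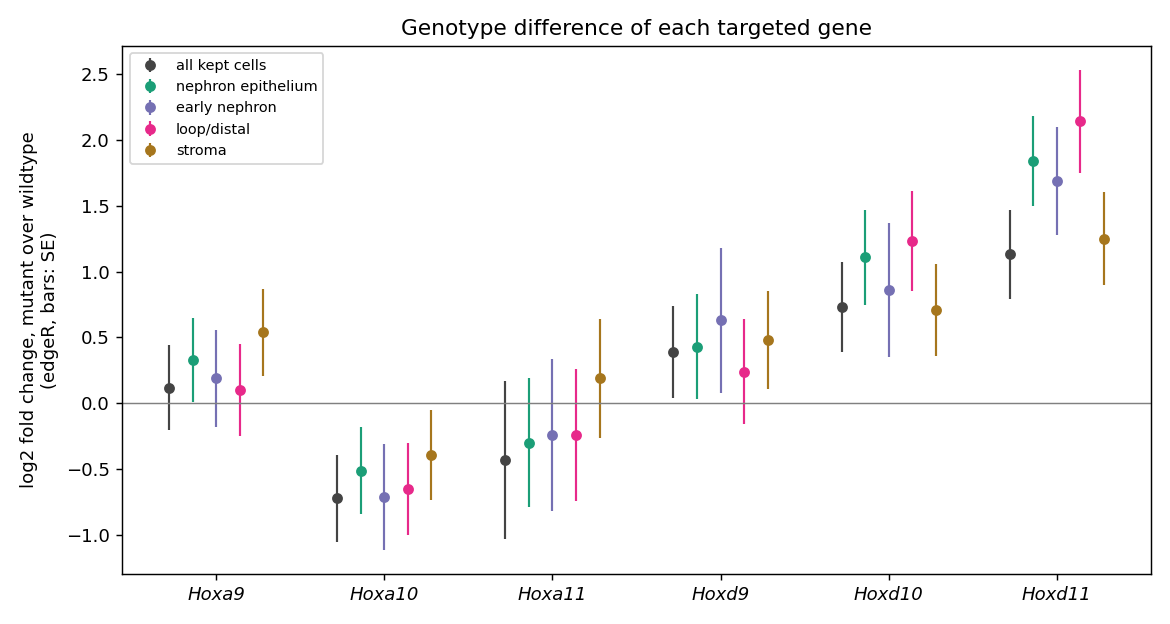
Log2 fold change of each gene, mutant over wildtype (vertical axis), in all kept cells and in 4 lineage classes; points are edgeR estimates over 2 libraries per genotype and bars are their SE. Hoxd11 lay between 1.13 and 2.14 and Hoxa10 between -0.72 and -0.39 in these classes, and none passed the adjusted threshold.

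Within lineages Hoxd11 again had the highest fold change of the 6 genes, with fold changes of 1.25 to 2.14 on the log2 scale in stroma and nephron epithelium. In loop and distal-like cells its 263 and 516 CPM in mutants, against 105 and 74.9 CPM in wildtypes, gave a log2 fold change of 2.14 (SE 0.39, edgeR adjusted p = 0.129). Across the 4 nephron epithelial gates together (early nephron, podocyte, proximal tubule, loop and distal), Hoxd11 had 134 and 218 CPM in mutants and 52.7 and 42.3 CPM in wildtypes, a log2 difference of 1.84 (SE 0.34, adjusted p = 0.132). In early nephron-like cells alone the fold change was 1.69 (SE 0.41, adjusted p = 0.497). In stroma-like cells it was 1.25 (SE 0.35, adjusted p = 0.226), with both mutant libraries above both wildtype libraries in each of these classes.

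These calls depended on the fit: edgeR with no filter on low counts gave Hoxd11 an adjusted p of 0.0011 in loop and distal-like cells and 0.00391 in nephron epithelium, and DESeq2 gave 0.0779 and 0.0261. Without mutant 1, the smallest library, edgeR's adjusted p was 0.000422 in loop and distal-like cells and 0.00216 in nephron epithelium, and without wildtype 1 it was 0.0346 and 0.0911. Without mutant 2 it was 0.0724 and 0.0745, and without wildtype 2 it was 0.112 and 0.0657. The direction was the same in all alternatives. Malat1 had 3902 and 7737 CPM in loop and distal-like cells of mutants and 2740 and 2407 CPM in those of wildtypes. The stromal marker list summed to 377 and 643 CPM in nephron epithelium of mutants and 231 and 199 CPM in that of wildtypes; in loop and distal-like cells it summed to 68.8 and 253 CPM in mutants and 72.8 and 104 CPM in wildtypes. The pooled class also differed in its mix: podocyte-like cells were 15 of 74 and 227 of 738 cells in mutants and 34 of 252 and 31 of 506 in wildtypes, and the podocyte list summed to 283 and 700 CPM in mutants and 201 and 56.8 CPM in wildtypes. The part of these measures in the Hoxd11 difference was not tested.

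Hoxd10 followed Hoxd11 in direction. In nephron epithelium it had 72.4 and 70.2 CPM in mutants and 27.3 and 34.8 CPM in wildtypes, a log2 difference of 1.11 (SE 0.36, adjusted p = 0.485). Loop and distal-like cells had a fold change of 1.23 (SE 0.38, adjusted p = 0.999) and stroma-like cells of 0.71 (SE 0.35, adjusted p = 0.762). Hoxa10 in nephron epithelium had 100 and 130 CPM in mutants and 137 and 177 CPM in wildtypes, and its fold change was -0.51 (SE 0.33, adjusted p = 0.975). In both genes and in each of these classes the genotypes did not overlap. The lower Hoxa10 of the pooled class did not hold in each of its gates. In podocyte-like cells Hoxa10 averaged 105 CPM in mutants and 54 CPM in wildtypes, with both mutant libraries above. In proximal tubule-like cells it averaged 94.9 and 96.2 CPM, and the genotypes overlapped. Mutant 1 had only 15 podocyte-like and 11 proximal tubule-like cells, and neither gate was tested.

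At these settings edgeR called no member in any lineage, out of 6 tested in early nephron, loop and distal and stroma-like cells and nephron epithelium, 2 in endothelium-like cells, 1 in ureteric-like and 0 in immune-like cells. Beside that, 0% of genes were called in early nephron-like cells (0 of 8839) and in nephron epithelium (0 of 11780), 0.0126% in loop and distal-like cells, 0.139% in ureteric-like, 0.224% in stroma-like, 0.102% in endothelium-like and 0.108% in immune-like cells. At an unadjusted edgeR p under 0.05 there were 2 members in loop and distal-like cells (301 of 7968 genes) and 2 in nephron epithelium (758 of 11780). There was 1 in early nephron-like cells (305 of 8839 genes) and 1 in stroma-like cells (629 of 9393). DESeq2 called Hoxd11 in nephron epithelium, where it called 3 of 11780 genes, and called no other member in a lineage. In stroma-like cells 4 members were above in both mutant libraries (16.9% of all genes were) and 1 was below (16.4%). The same counts, 4 and 1, held in early nephron-like cells (16.4% and 13.1% of all genes) and in nephron epithelium (19.7% and 13.4%). Loop and distal-like cells had 2 members above (15.6%) and 1 below (14.7%). In ureteric-like cells Hoxd9 was the only member with enough counts to be tested, and its fold change was -0.10 (SE 0.45, adjusted p = 0.989). The genotypes overlapped for all 6 genes there and in immune-like cells (18.7% and 16.9% of all genes were above and below in ureteric-like, 16.9% and 19.3% in immune-like cells). In endothelium-like cells Hoxd9 was above in both mutants (16.4% of all genes) and none was below (15.5%).

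Stroma-like cells were divided further by cortical, medullary and matrix markers. In the matrix-rich stroma, with 179 and 744 mutant and 88 and 119 wildtype cells, Hoxd11 had 180 and 292 CPM in mutants and 125 and 78.7 CPM in wildtypes (log2 fold change 1.24, SE 0.40, adjusted p = 0.33; 0.281% of all genes called). In cortical-like stroma it had 79.3 and 205 CPM in mutants and 66.1 and 54.9 CPM in wildtypes (1.37, SE 0.48, adjusted p = 0.456; 0% called). Medullary-like stroma had 391 CPM of Hoxa10 and 391 CPM of Hoxd11 in mutant 2. In wildtypes it had 193 and 311 CPM of Hoxa10 and 138 and 121 CPM of Hoxd11. Mutant 1 had only 2 such cells, so this subset was not tested. The mix of stroma-like cells differed between genotypes. Matrix-rich cells were 179 of 279 and 744 of 1147 in mutants and 88 of 238 and 119 of 438 in wildtypes. Medullary-like cells numbered 2 and 72 in mutants and 28 and 88 in wildtypes. The part of this mix in the differences of the whole stroma gate was not tested.

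The difference between genotypes was then tested for variation across the 6 shared lineages, with library as a block. Hoxd11 had the lowest edgeR adjusted p of the 6 (F = 3.1, adjusted p = 0.278), followed by Hoxa9 (adjusted p = 0.508) and Hoxa10 (adjusted p = 0.594). None passed, against 1.42% of 11656 genes. With gates that needed no 2-fold lead over the next marker list, Hoxd11 passed (F = 4.92, edgeR adjusted p = 0.0232), beside 161 of 12419 genes. This test takes all 6 lineages together, and loop and distal-like cells were not tested against stroma-like cells alone. It therefore cannot say whether the Hoxd11 fold change differs between those lineages.

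The balance between the genes can be read without a scaling factor as each gene's share of the UMIs of all 6. Over all kept cells the 3 HoxD members made up 46.1% and 49.9% of these UMIs in mutants and 32.3% and 26.8% in wildtypes. Hoxa10 made up 19.2% and 19.2% in mutants and 34.8% and 35% in wildtypes, with 95% binomial intervals (Clopper-Pearson) of 17.2 to 21.3% for mutant 1 and 33.3 to 36.2% for wildtype 1. Hoxd11 made up 23.1% and 29.8% in mutants and 17.2% and 10.7% in wildtypes. The genotypes did not overlap in any of these shares. The shares are not independent, since they add up within the same 6 genes and Hoxd11 is part of the HoxD sum. No background over other sets of genes was computed for such shares, here or by lineage. By level, both mutant libraries were above for 25.1% of all genes and below for 13.6%. A share shows unequal change among the 6 genes and not which of them changed. Since tags are read at 3' ends, shares of different genes within a library need not be their relative amounts of RNA.

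The split held in nephron epithelium, loop and distal-like and stroma-like cells, but not in every lineage. In nephron epithelium the HoxD share was 42.5% and 46.8% in mutants and 24.1% and 24% in wildtypes, and the Hoxa10 share was 16.4% and 17.8% against 31.4% and 34%. The HoxD share in loop and distal-like cells was 46.8% and 57.7% in mutants and 25.7% and 28.6% in wildtypes. In stroma-like cells it was 46.7% and 55.8% against 40.1% and 33.5%. In these classes both mutant libraries were above both wildtype libraries. In podocyte-like cells the HoxD share was 26.9% and 29.9% in mutants, against 34.4% of 32 UMIs in wildtype 2, and in endothelium-like cells it was 9.65% in mutant 2, against 9.09% and 8.86% in wildtypes. In endothelium-like cells the Hoxa10 share of mutant 2, 24.8%, lay between the 27.3% and 22.8% of the wildtypes. In ureteric-like cells Hoxd9 alone made up 79.5% of the 39 UMIs of mutant 2, and 76.8% of 69 and 68.8% of 269 UMIs in the wildtypes. Libraries with under 30 UMIs of the 6 genes in a lineage have no share.

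**Figure D3:**
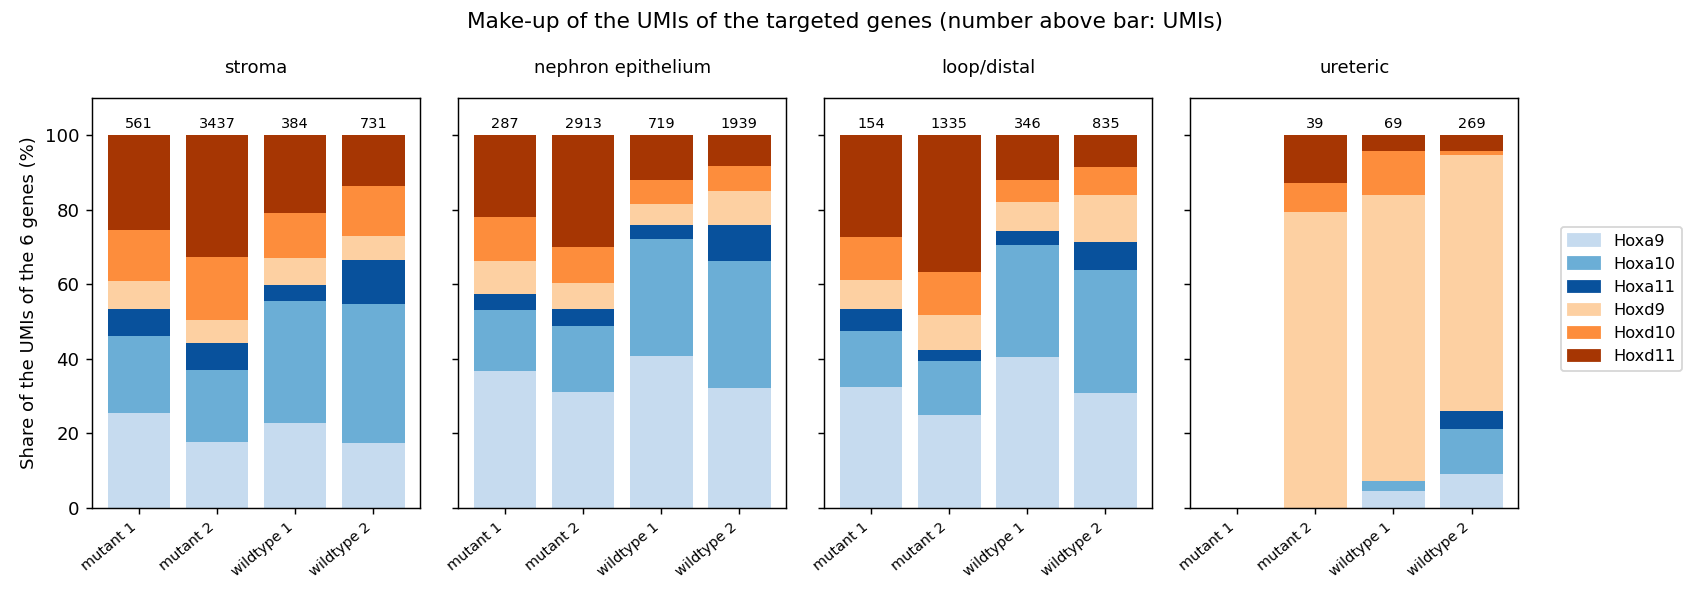
Share of each gene in the UMIs of all 6 genes (vertical axis, %) per library in 4 classes, with the number of UMIs above each bar; mutant 1 is blank for ureteric-like cells, where it had too few UMIs. The orange HoxD part is larger in mutants in stroma, nephron epithelium and loop and distal-like cells, and Hoxd9 fills 68.8% to 79.5% of the ureteric bars.

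The share of cells with a UMI was compared after each cell was thinned to 1000 UMIs, which left out 6 and 39 mutant and 9 and 6 wildtype cells of the nephron epithelium and 44 and 158 mutant and 16 and 49 wildtype stroma-like cells that were shallower. In nephron epithelium Hoxd11 was seen in 16.2% of 68 and 15.9% of 699 mutant cells and in 4.53% of 243 and 3.8% of 500 wildtype cells. Without thinning these shares were 37.8% and 45.3% in mutants and 20.2% and 21.7% in wildtypes. In loop and distal-like cells Hoxd11 was seen in 33.3% of 24 and 36.6% of 153 mutant cells after thinning. In wildtypes it was seen in 7.02% of 57 and 5.93% of 118 such cells. In stroma-like cells it was seen in 34 of 235 and 223 of 989 mutant cells and in 25 of 222 and 31 of 389 wildtype cells. Both mutant libraries were above both wildtype libraries in each of these lineages. How many of all genes were so is given below for stroma-like cells and nephron epithelium. It was not computed for loop and distal-like cells, where 15.6% of all genes were above by level. Exact permutation of 2 against 2 libraries cannot give a two-sided p below 0.33, and these comparisons reached that smallest value.

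As background, Hoxd11 was seen in 0 of 22 and 2 of 53 thinned mutant immune-like cells and in 0 of 29 and 0 of 56 wildtype ones, which allows shares of up to 13.6%, 10.3% and 5.36% where it was 0. Median depth before thinning was 2514 and 2250 UMIs in mutant and 2476 and 2540 UMIs in wildtype immune-like cells, and 2262 and 2776 against 2623 and 2566 UMIs in stroma-like cells. Hoxd9 in ureteric-like cells was seen in 8% of 25 and 14.3% of 35 mutant cells and in 5.68% of 88 and 11.5% of 174 wildtype cells, and the genotypes overlapped. The limits are wide: the Hoxd11 shares of wildtype nephron epithelium lay within those of the wildtype immune-like cells, and so did that of wildtype 1 loop and distal-like cells, so these wildtype shares cannot be told from background here. Hoxa10 in stroma-like cells was seen in 26 of 235 and 143 of 989 mutant cells and in 29 of 222 and 76 of 389 wildtype cells, so that its share of positive cells overlapped where its level did not. Of the 6 genes, 3 did not overlap between genotypes in stroma-like cells (Hoxa9, Hoxd9 and Hoxd11) and 3 in nephron epithelium (Hoxa9, Hoxd10 and Hoxd11), with both mutant libraries above. Over all genes, cells thinned in the same way put both mutant libraries above for 16.9% of 11027 genes in stroma-like cells and 18.2% of 11987 genes in nephron epithelium.

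**Figure D4:**
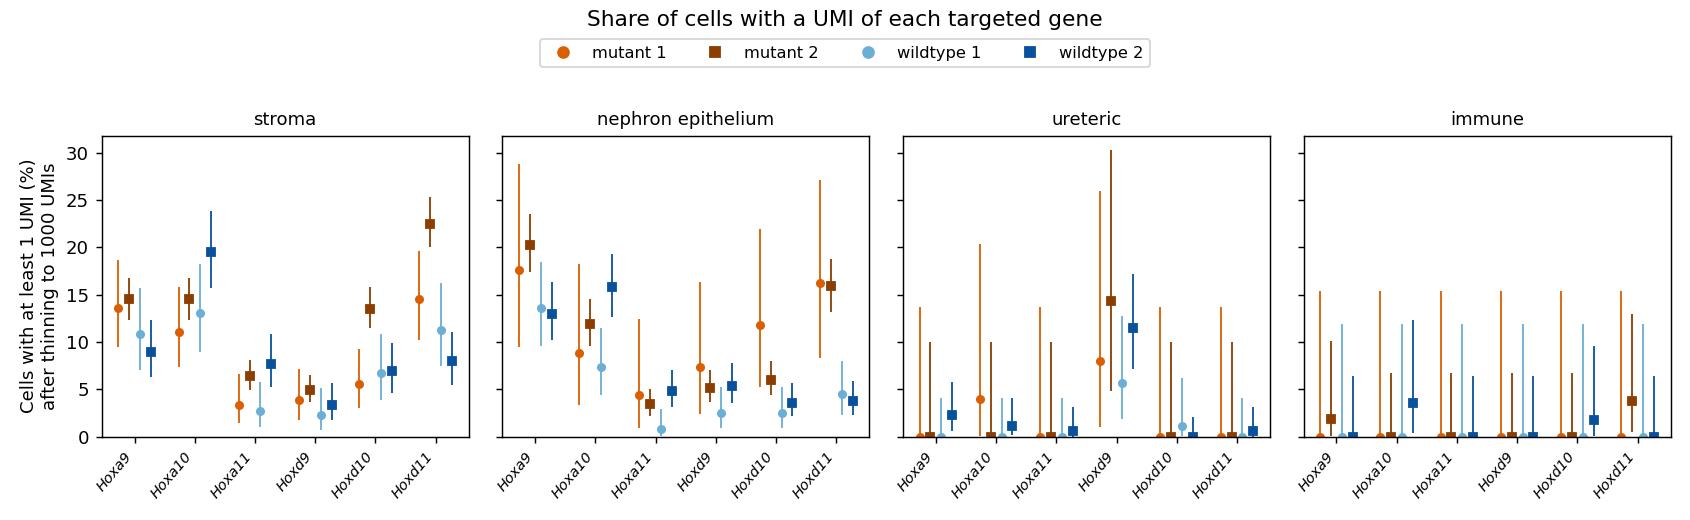
Share of cells with at least 1 UMI of each gene after thinning to 1000 UMIs per cell (vertical axis, %) in 4 classes; points are libraries and bars are 95% exact binomial intervals. Hoxd11 in nephron epithelium stood at 16.2% and 15.9% in mutants, against 4.53% and 3.8% in wildtypes, and immune-like cells give the background.

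The number of the 6 genes seen in the same thinned loop and distal-like cell averaged 1 and 1.2 genes per cell in mutants and 0.579 and 0.746 in wildtypes, and 29.2% and 35.3% of mutant cells, against 8.77% and 16.1% of wildtype cells, had 2 or more. Progenitor-like cells averaged 0.591 and 0.647 genes in wildtypes. Stroma-like cells averaged 0.519 and 0.763 genes in mutants and 0.468 and 0.545 in wildtypes, with overlap. Ureteric-like cells averaged 0.12 and 0.143 genes in mutants and 0.0682 and 0.161 in wildtypes. In ureteric-like cells of both mutants and of wildtype 1, no thinned cell held more than 1 of the 6 genes, and in wildtype 2 a single cell did.

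Other genes of the Hox network were counted over all kept cells. Of 10 other Abd-B paralogs, 5 were tested and none was called; their median was 0.22. The smallest p among them belonged to Hoxd12, the 5' neighbour of Hoxd11 (log2 fold change -1.10, adjusted p = 0.271), followed by Hoxb9 (-0.55, adjusted p = 0.704). Of 11 genes of the same clusters in paralog groups 1 to 8, 9 were tested and none was called, with a median of 0.23 and the smallest p at Hoxa2 (0.60, adjusted p = 0.735) and Hoxa4 (-0.74, adjusted p = 0.754). The 9 TALE cofactors, homeodomain partners of Hox proteins such as Meis1, were all tested and none was called, with a median of -0.11; Pknox2 had 1.14 (adjusted p = 0.499) and Meis1 0.59 (adjusted p = 0.617). Of 5 kidney partners and targets of Hox11, 2 were lower: Six2, which keeps progenitors undifferentiated, fell by 3.20 on the log2 scale (adjusted p = 0.000134), and Eya1, a cofactor of Six2, fell by 2.63 (adjusted p = 0.00016), beside 56 genes called lower of 15777. These are summed cells with few progenitor-like cells in mutants. Within nephron epithelium Six2 had -0.67 (edgeR adjusted p = 0.993) and Eya1 0.22 (adjusted p = 0.997). Both genes are on the progenitor gate list, so cells rich in them were steered out of this class. Wildtype means were 5.28 CPM of Six2 and 4.63 CPM of Eya1 here, against 92.8 and 121 CPM in progenitor-like cells. These 2 fold changes therefore cannot show whether either gene differs per cell. Of 9 noncoding genes of the clusters, 1 was tested: Hoxa11os, the antisense transcript of Hoxa11, had 19.4 and 29.1 CPM in mutants and 34.4 and 52.6 CPM in wildtypes (-0.99, adjusted p = 0.274).

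In loop and distal-like cells 2 genes of the HoxC cluster, chosen after their values were seen, had differences in the same direction as Hoxd11. Hoxc10 had 169 and 130 CPM in mutants and 15.1 and 32.7 CPM in wildtypes, a log2 fold change of 2.48 (SE 0.46, edgeR adjusted p = 0.129). Hoxc9 had 131 and 90.8 CPM in mutants and 2.51 and 20 CPM in wildtypes, a fold change of 2.94 (SE 0.59, adjusted p = 0.174). Hoxc10 in wildtype 1 rested on 6 UMIs and Hoxc9 on 1 UMI. Both mutant libraries were above both wildtype libraries, and neither gene was called. The remaining Abd-B paralog tested in this lineage, Hoxb9, had 0.63 (SE 0.46, adjusted p = 0.999), against a median of 0.01 over all genes. In nephron epithelium Hoxc11 had 27.7 and 21.2 CPM in mutants and 3.64 and 8.84 CPM in wildtypes (1.72, adjusted p = 0.429), and Hoxc10 had a fold change of 1.17 (adjusted p = 0.504).

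Across the 9 wildtype lineages, the 3 genes with the most similar profiles included another Hox gene or Hoxa11os for 5 of the 6 genes, all but Hoxd9. Likeness was Pearson's r of log2(CPM + 5) over the lineage means, searched over 10927 genes and given as a description of points that share libraries. Hoxa9 was most like Hoxa7 (r = 0.945), Hist1h4b (0.944) and Lin52 (0.929). Hoxa10 was most like Hoxa11 (0.946), Hoxa11os (0.942) and Hoxa9 (0.904). Hoxa11 followed Hoxa11os (0.979), Ctdspl2 (0.957) and Hoxa10 (0.946), and the first of these shares its locus. Hoxd11 was most like Hoxa11 (0.932), Hoxd10 (0.921) and Hoxa11os (0.920), and Hoxd10 was most like Pkdcc (0.942), Zfp148 (0.934) and Hoxa11 (0.932). Hoxd9 was most like Ephb2 (0.962), Sct (0.953) and Flywch2 (0.952), and no other member came closer to it than rank 2512, held by Hoxd10 (r = 0.462).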

How the data were processed

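Drop-seq libraries of E14.5 kidneys, 2 per genotype, were analysed from the deposited tables, which hold raw counts for each gene in each barcode. Bowtie2 2.2.7 and build mm10 are named in the submitters' processing notes; the annotation, strand handling and collapsing of UMIs are not given in the sources used here. Cells with at least 500 genes and at most 10% mitochondrial counts were kept. Automatic doublet thresholds of Scrublet (scanpy 1.11.5) marked 10 barcodes, so the 5% of barcodes with the highest scores in each library were left out (620). A cell was gated to 1 of 12 lineages with at least 3 UMIs from at least 2 marker genes, when its ratio of observed to expected marker UMIs was the highest and at least 2 times the next; 6091 of 11779 cells were gated, and "-like" marks such a gate. Raw counts were summed per library and lineage and fitted over all genes with edgeR 4.0.16 in R 4.3.3. The fits used TMM, filterByExpr and the robust quasi-likelihood test, two-sided, with a Benjamini-Hochberg adjusted p under 0.05. They were also run on simulated counts without library effects, where the genotype fit covered only all kept cells and stroma-like cells. Those runs cannot show how the fits behave in gates with few cells or where libraries differ in quality. Intervals (95%, exact Poisson and Clopper-Pearson) and limits for a count of 0 (3 counts) cover counting error only. CPM is per 1000000 UMIs of the summed cells. Levels of different genes were set against each other only as shares of the UMIs of the 6 genes. Tags are read at 3' ends, so these shares are meant for comparison between libraries and not between genes. Alternatives were DESeq2 1.42.0, no filter on low counts, other cell filters, gates and thinning depths, a replicate block, and leaving out each library. The members, the gene lists and the tests were chosen with earlier results of these data known. Beside the 6 members, the text names the 3 genes most like each member among those with at least 30 UMIs in each wildtype library, and from each list the genes that passed the genotype test or else those with the smallest p; others are marked as chosen after their values were seen. Whether equal replicate numbers in the labels mark paired libraries is not known here, and the main fits did not pair them. The correlation of the deviations of same-numbered libraries was -0.121 over 11777 genes. It compares a single difference per genotype, so it cannot settle whether they share a batch.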

Additional observations from a re-analysis of the deposited data

How the results depend on the processing

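No member was called between genotypes over all kept cells under any alternative run. In loop and distal-like cells 1 member, Hoxd11, was called with no filter on low counts (log2 fold change 2.09), with the replicate block (2.10, edgeR adjusted p = 0.023) and with the crossed replicate block, and leaving out 1 library gave 0 to 1 calls. In nephron epithelium 1 was called with no filter (1.81), the replicate block (1.83, adjusted p = 0.0076) and DESeq2 (1.83), and leaving out 1 library gave 0 to 1. Genotype by lineage called 1 member with gates without a 2-fold lead, beside 161 of 12419 genes. In loop and distal-like cells the fit with no filter called 17 of 17534 genes, the replicate block 11 and the crossed block 8 of 7968. In nephron epithelium no filter called 55 of 22038 genes, the replicate block 44 and DESeq2 3 of 11780. The replicate block changed no other call on a member; over all kept cells it gave Hoxd11 1.09 and called 160 genes, against 208. Crossing the numbers, chosen after seeing the data, called 157 genes over all kept cells. In stroma-like cells it called 1 member, beside 105 of 9393 genes. Fits with 1 library of a genotype assume that it varies like the other genotype.

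Members whose positive shares did not overlap in stroma numbered 5, against 3, at 2000 UMIs, where 34.1% of all genes did not overlap, against 33.0%. Without 1 library they numbered 4 to 5 in stroma, beside 64.5% to 66.9% of all genes, and 3 to 6 in nephron epithelium, beside 57.3% to 75.6%. Directions that reversed belonged to fold changes that were not called. With 1 library left out, Hoxa11 ranged from -1.10 to 0.81 over all kept cells, -1.97 to 1.03 in early nephron-like, -0.68 to 0.49 in loop and distal-like, -0.38 to 1.30 in stroma-like cells, -0.91 to 0.84 in nephron epithelium and -0.73 to 2.31 in matrix-rich stroma. The crossed replicate block gave Hoxa11 0.17, 0.03 and 0.07 in early nephron-like cells, loop and distal-like cells and nephron epithelium. Hoxd9 ranged from -0.13 to 0.72 in loop and distal-like, -0.46 to 0.37 in ureteric-like and -0.18 to 0.92 in cortical-like cells, and Hoxa9 from -0.04 to 0.24 in loop and distal-like and -0.94 to 0.06 in endothelium-like cells. The wildtype podocyte contrast of Hoxd11, 0.01, was -0.05 with no filter, -0.14 with no doublet step, and -0.01 with no mitochondrial limit and with a gate of 5 UMIs. The cause of these shifts was not tested. Mutant 1, with 23 to 26 cells in the early nephron, loop and distal and ureteric gates, limits the depth there.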
